A study of Homo sapiens with 4 samples.

Results

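PHLDA1, KLF6 and CD44 are 3 human genes described here in H3K27ac HiChIP libraries of IMR90, a line of human lung fibroblasts. Their surroundings held some of the best-connected acetylated regions of these libraries, at CD44 mainly in the control library. In HiChIP, fixed chromatin is cut and neighbouring ends are ligated, and ligation products that carry a chosen mark are then immunoprecipitated. The mark here is H3K27ac, acetylation of histone H3 that is found at active promoters and enhancers. A contact is counted as a paired-end tag (PET) that joins a pair of anchors, the regions into which the deposited lists group the signal. The genes were chosen by the number of partners that anchors around them have in these same libraries, so partner numbers below are a description and carry no test. The loci were fixed as windows on the hg19 build: chromosome 12 from 76000000 to 76500000 around PHLDA1 (gene at 76419227 to 76425556), chromosome 10 from 3750000 to 4850000 around KLF6 (3818188 to 3827473) and chromosome 11 from 35100000 to 35300000 around CD44 (35160417 to 35253949). Every interaction with at least 1 anchor overlapping a window was a member.

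There was 1 library per group and 4 in all. They came from senescent cells with a hairpin against METTL3 (shMETTL3), senescent cells with a hairpin against METTL14 (shMETTL14), senescent cells with a control hairpin (shcontrol), and control cells, whose genotype label is WT and names no hairpin. The treatment protocol of the labels has METTL4 in place of METTL14, and the genotype label was followed. METTL3 and METTL14 form the enzyme that writes N6-methyladenosine on RNA. Senescence was brought about by an inducible fusion of the estrogen receptor to an oncogenic H-RAS, so these are oncogene-induced senescent cells of 1 line. Since the labels do not tie the control library to a hairpin or to induction of the fusion, senescence cannot be told apart from carrying them, nor from the library itself. The files hold no expression values, so neither the knockdowns nor the identity of the cells could be checked.

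The shMETTL3 library held 623930 PETs in 270754 interactions, shMETTL14 936492 in 368291, shcontrol 552029 in 258943 and control 998378 in 432400. In the senescent libraries 31 anchors lay in the PHLDA1 window, 54 in the KLF6 window and 10 in the CD44 window, out of 53579, 54660 and 53118 anchors in the shMETTL3, shMETTL14 and shcontrol libraries. In the control library the windows held 36, 56 and 11 anchors out of 66743. The interactions that met the membership rule at PHLDA1 numbered 755 in shMETTL3, 857 in shMETTL14, 711 in shcontrol and 883 in control. At KLF6 they numbered 919, 1224, 892 and 1238 in the same libraries, and at CD44 256, 342, 231 and 332. The 3 senescent libraries share 1 set of anchor positions and the control library has another, so a value set between shcontrol and control also depends on how much length each set covers. The intervals given are 95% intervals (Poisson for a level, exact conditional binomial for a ratio) and cover counting error only, because 1 library per group leaves no spread between samples.

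PHLDA1 encodes a small protein with a pleckstrin-homology-like domain that is induced by growth factors and stress and has been tied to apoptosis and cell survival. KLF6 is a zinc-finger transcription factor of the Krüppel-like family, which bind GC-rich boxes in promoters; it is an immediate early gene in injured tissue and is known as a growth suppressor. CD44 is a cell-surface receptor for hyaluronan, the main sugar polymer of the loose matrix that fibroblasts make, and is spliced into many isoforms. Genes of this kind are often served by several enhancers that also contact each other, so a promoter and its enhancers can form a mesh of contacts rather than a single loop.

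The promoters of the 3 genes are shown because each lies under the anchor whose contacts are described below. They are the 300 bases from 250 before to 50 after the gene's start, read 5′ to 3′ on the gene's strand, from RefSeq on the GRCh38.p14 build, where 3 of 3 genes matched by symbol. PHLDA1 and KLF6 are on the minus strand and CD44 on the plus strand. Capitals mark matches, on either strand, to the GC box GGGCGG or the E-box CACGTG.
PHLDA1: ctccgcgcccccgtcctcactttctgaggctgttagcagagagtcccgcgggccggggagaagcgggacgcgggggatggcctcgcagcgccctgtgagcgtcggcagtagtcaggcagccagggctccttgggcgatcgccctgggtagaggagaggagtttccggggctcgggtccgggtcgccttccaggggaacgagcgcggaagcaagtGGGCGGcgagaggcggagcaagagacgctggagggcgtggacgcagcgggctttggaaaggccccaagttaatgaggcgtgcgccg
KLF6: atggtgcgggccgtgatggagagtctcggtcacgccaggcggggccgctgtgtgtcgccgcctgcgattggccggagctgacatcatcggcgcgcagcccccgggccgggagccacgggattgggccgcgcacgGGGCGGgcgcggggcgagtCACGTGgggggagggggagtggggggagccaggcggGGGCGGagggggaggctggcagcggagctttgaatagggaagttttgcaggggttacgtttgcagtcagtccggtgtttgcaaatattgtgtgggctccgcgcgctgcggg
CD44: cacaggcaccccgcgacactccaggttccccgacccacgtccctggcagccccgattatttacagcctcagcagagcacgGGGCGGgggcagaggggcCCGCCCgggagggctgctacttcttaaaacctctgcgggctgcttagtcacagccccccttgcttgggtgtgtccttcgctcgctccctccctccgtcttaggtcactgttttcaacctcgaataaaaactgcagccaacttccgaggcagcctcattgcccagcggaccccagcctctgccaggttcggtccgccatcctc
The PHLDA1 promoter holds 1 GC box, the KLF6 promoter 2 GC boxes and 1 E-box, and the CD44 promoter 2 GC boxes, 1 of them on the other strand. No base lay in more than 1 match. Of 35116 promoters of the same length, 45.0% hold the GC box and 7.26% the E-box. The AP-1 letters TGANTCA and the TEAD letters GGAATG, present in 7.71% and 14.0% of promoters, were searched on both strands and are in none of these 3 windows. The GC content was 69.3% at PHLDA1, 70.7% at KLF6 and 63.3% at CD44.

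The PHLDA1 window carried the most contacts of the 3 loci in every library. It stood about 1.85-fold higher in senescent shcontrol cells than in control cells, KLF6 1.20-fold higher and CD44 lower. Per covered kb the CD44 ratio passed 1 but stayed under that of the whole libraries. PHLDA1 had 8321 PETs per 1000000 PETs of the library (PPM) in shMETTL3, 6918 in shMETTL14, 8119 in shcontrol and 4392 in control. KLF6 had 4725, 4855 and 4791 PPM in shMETTL3, shMETTL14 and shcontrol and 3986 in control. CD44 had 1301, 1253 and 1138 in the senescent libraries in the same order and 1694 in control. The senescent libraries lay closest together at KLF6, shMETTL14 lay below the others at PHLDA1, and shMETTL3 lay above shcontrol at CD44. The windows differ in length, so levels are set between loci only per kb covered by anchors. By that measure PHLDA1 had 30.4, 25.3, 29.7 and 15.3 PPM per kb in shMETTL3, shMETTL14, shcontrol and control. KLF6 had 12.9, 13.3, 13.1 and 9.69, and CD44 16.0, 15.4, 14.0 and 11.3, so that PHLDA1 stood highest in every library.

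The ratio of senescent shcontrol to control was 1.85 at PHLDA1 (1.77 to 1.93), 1.20 at KLF6 (1.14 to 1.26) and 0.672 at CD44 (0.612 to 0.737). Anchors of the senescent set cover 273 kb at PHLDA1, 366 kb at KLF6 and 81.5 kb at CD44, against 287, 412 and 150.4 kb in the control set. Per covered kb the ratio was 1.94 at PHLDA1 and 1.35 at KLF6, and at CD44 it turned over to 1.24 (1.13 to 1.36). A CD44 ratio below or above 1 therefore rests on whether the covered length is taken into account. Over the whole genome the shcontrol anchors cover 225.55 Mb and the control anchors 318.34 Mb. PPM sum to the same total in each library, so the whole-library ratio per covered kb also lies above 1. The ratios per covered kb at KLF6 and CD44 lie below that whole-library ratio, and that at PHLDA1 lies above it. The ratio of shMETTL3 to shcontrol was 1.02 at PHLDA1 (0.985 to 1.07), 0.986 at KLF6 (0.935 to 1.04) and 1.14 at CD44 (1.03 to 1.27). The ratio of shMETTL14 to shcontrol was 0.852 at PHLDA1 (0.820 to 0.885), 1.01 at KLF6 (0.966 to 1.06) and 1.10 at CD44 (0.998 to 1.22). With both ends in the CD44 window, which 237 PETs in shMETTL3 and 139 in shcontrol have, the shMETTL3 ratio was 1.51 (1.22 to 1.87). No whole-library value at matched spans was taken beside it. Both knockdown ratios share the shcontrol library. The antibody step makes PETs depend on how acetylated an anchor is and on how often it is contacted, which cannot be told apart in these files.

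**Figure D1:**
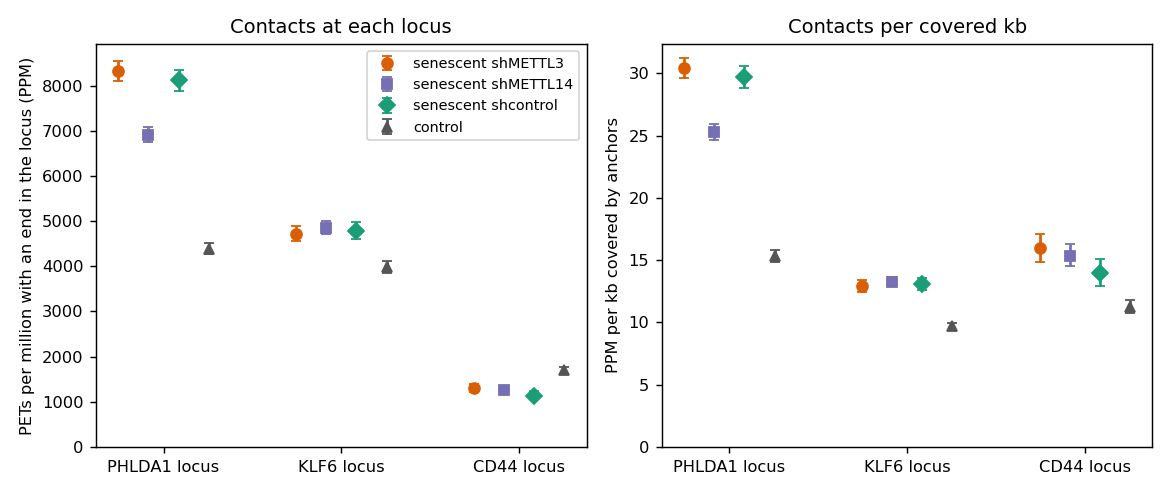
PETs with an end in the PHLDA1, KLF6 or CD44 window, as PPM (left) and the same per kb covered by anchors (right), 1 library per point with its 95% Poisson interval. At PHLDA1 the senescent libraries lie at 6918 to 8321 and control at 4392; CD44 changes order between the panels, with control highest on the left at 1694 and lowest on the right at 11.3.

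A loop was counted where a pair of anchors was joined by at least 4 PETs, after the PETs of each library were drawn down to 552029, the total of the shcontrol library. PHLDA1 then had 235 loops in shMETTL3, 208 in shMETTL14, 223 in shcontrol and 158 in control. KLF6 had 148, 173 and 157 loops in shMETTL3, shMETTL14 and shcontrol and 129 in control, and CD44 had 44, 48 and 40 in the senescent libraries and 66 in control. Loops were 32.5%, 31.4%, 31.4% and 23.7% of the interactions left at PHLDA1 in shMETTL3, shMETTL14, shcontrol and control, 17.3%, 18.7%, 17.6% and 14.5% at KLF6, and 18.5%, 18.5%, 17.3% and 25.8% at CD44. Over all interactions they were 12.2%, 11.3%, 11.4% and 9.31%, so control had the lowest share in the whole library too, with 29625 loops in shcontrol against 27090 in control. The loci were chosen by such loops, and nothing is read from the excess. The order between shcontrol and control depends on the drawing at PHLDA1 and KLF6: as deposited, at unequal depth, PHLDA1 had 256, 301, 223 and 251 loops in shMETTL3, shMETTL14, shcontrol and control, and KLF6 had 170, 274, 157 and 236. CD44 as deposited had 51, 75, 40 and 99. Just under the threshold, pairs joined by 3 PETs at equal depth would bring PHLDA1 to 298, 266, 283 and 208 loops in shMETTL3, shMETTL14, shcontrol and control, KLF6 to 217, 247, 222 and 199, and CD44 to 64, 67, 61 and 85.

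At PHLDA1 many pairs of anchors within the window were joined. Of the 465 possible pairs among the 31 senescent-set anchors of the window, 42.2% were loops in shMETTL3, 37.4% in shMETTL14 and 39.1% in shcontrol, and of the 630 pairs among the 36 control-set anchors 20.2% were loops. KLF6, over a longer window with more small anchors, had 9.64%, 10.6% and 9.92% of pairs joined in shMETTL3, shMETTL14 and shcontrol and 6.88% in control. CD44 had 33.3%, 37.8%, 26.7% and 30.9% in the same order, of 45 or 55 pairs. No such share was counted for other windows, and the windows and anchor sets differ in length and number of anchors. The loci were chosen by such loops, so nothing is read from these shares or from their order.

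Anchors with at least 10 partners at equal depth, called hubs here, made up a large part of the PHLDA1 window. They numbered 16 of 31 in shMETTL3, 15 of 31 in shMETTL14, 17 of 31 in shcontrol and 9 of 36 in control. Over all anchors the share of hubs was 1.44% in shMETTL3, 1.24% in shMETTL14, 1.43% in shcontrol and 0.963% in control; the loci were chosen for such anchors, so nothing is read from the excess. KLF6 held 8, 9, 10 and 7 hubs and CD44 3, 3, 2 and 4 in the same order of libraries. Wide anchors are hubs more often: of all anchors 20 to 40 kb wide, 63.7% were hubs in shMETTL3, 64.3% in shMETTL14, 63.9% in shcontrol and 40.03% in control, and of those 10 to 20 kb wide 19.2%, 17.8%, 18.99% and 7.67% in the same libraries. The anchor over each gene start was 24.9 kb for PHLDA1, 15.7 kb for KLF6 and 11.2 kb wide for CD44 in the senescent set and 27.2, 16.8 and 35.0 kb in the control set.

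**Figure D2:**
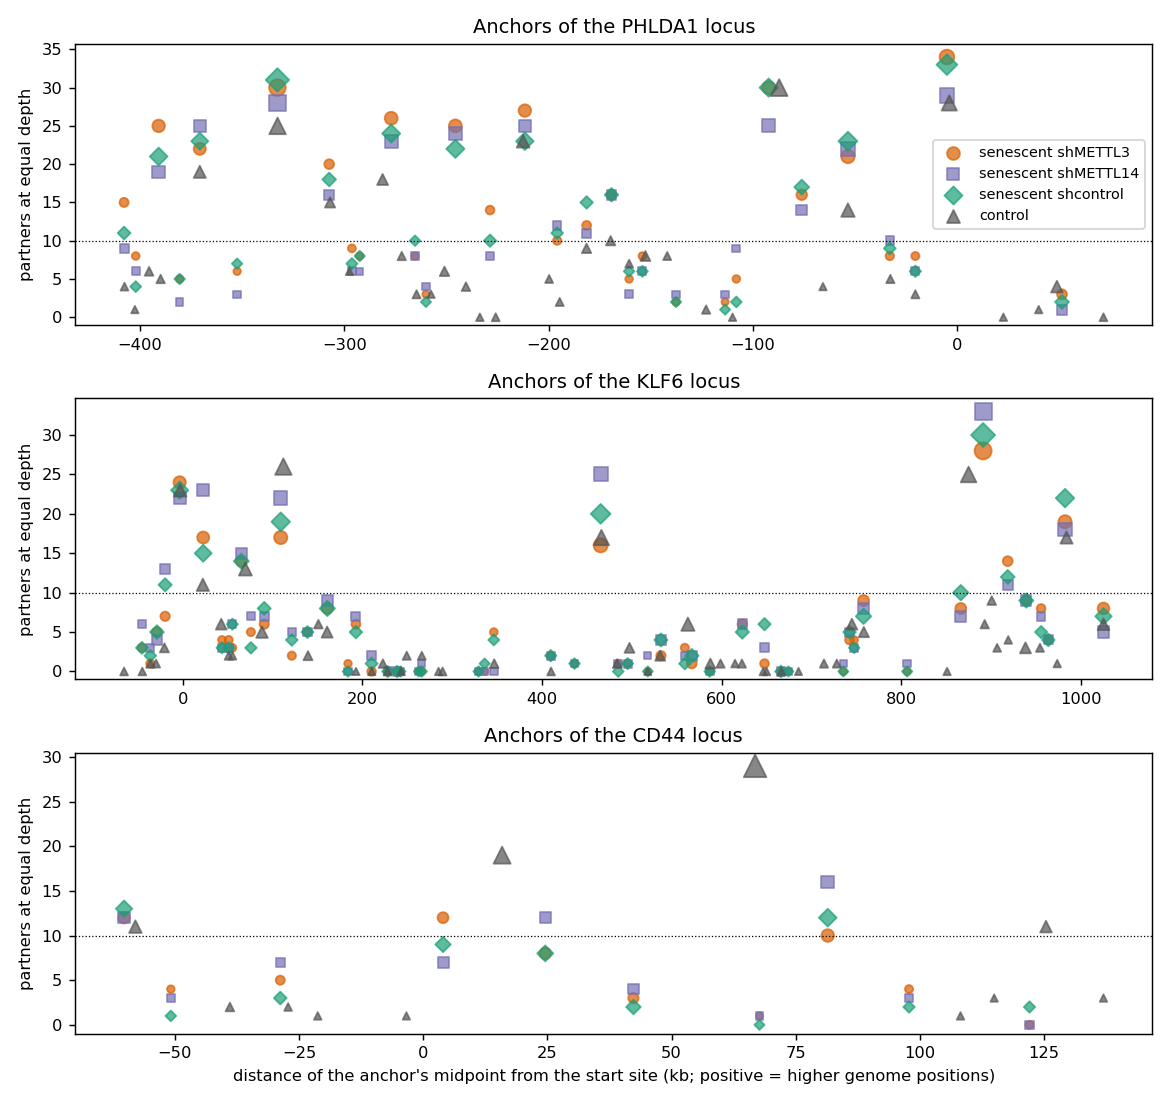
Partners joined by at least 4 PETs at equal depth for each anchor of the 3 windows, against the distance of the anchor's midpoint from the gene's start site in kb; a larger point is a wider anchor, and the dotted line marks 10 partners. PHLDA1 shows a row of high points from the start site out to about 400 kb on 1 side, KLF6 a group at the start and another near 900 kb, and CD44 its highest points in the control library, at 29 and 19 partners.

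The anchor over the PHLDA1 start, at 76408003 to 76432883 in the senescent set and to 76435171 in the control set, spans the whole gene. It had 34 partners in shMETTL3, 29 in shMETTL14, 33 in shcontrol and 28 in control at equal depth, with ranks 1 (shared with another anchor), 3, 2 and 4 among all anchors of those libraries. Over 20 other drawings its mean was 33.75, 29.4, 33.0 and 29.85 (the shcontrol library is the smallest and is not drawn down), and in control it ran from 22 to 35, so a difference of a few partners is within what the drawing alone gives. Its level was 1181 PPM in shMETTL3, 1115 in shMETTL14, 1342 in shcontrol and 885 in control. The shcontrol library was the highest and control the lowest. The shcontrol level was 1.52-fold that of control (1.37 to 1.67), shMETTL3 stood at 0.880 of shcontrol (0.794 to 0.976) and shMETTL14 at 0.831 (0.755 to 0.914).

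The contacts of PHLDA1 run almost entirely to 1 side. Of the PETs at its start anchor, 92.0% in shMETTL3, 90.8% in shMETTL14, 90.01% in shcontrol and 87.1% in control joined a partner at lower positions, which lies beyond the gene's 3′ end in the direction of KRR1, its lower coding neighbour in RefSeq order, and away from NAP1L1. Partners lay at a median distance of 280, 233, 260 and 242 kb in shMETTL3, shMETTL14, shcontrol and control. Of the partners at equal depth, 28 of the 34 in shMETTL3 were among the 33 in shcontrol, as were 25 of the 29 in shMETTL14. By overlap of anchors, 24 of the 33 in shcontrol (72.7%) met a partner in control, or 85.7% of the 28 there. These overlaps, and those at KLF6 and CD44 below, were counted on the drawing with seed 1. They were counted for no other anchors, so the loci are not compared by them.

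The strongest single contact of the PHLDA1 start anchor in the senescent libraries joined it to the anchor at 76362086 to 76381892, at -53.6 kb from the start site (negative values lie at lower positions, measured to the partner's midpoint). That contact had 152 PPM in shMETTL3, 120 in shMETTL14, 149 in shcontrol and 72.1 in control, a ratio of 2.06 between shcontrol and control (1.48 to 2.87). Both anchor sets draw the partner with the same ends, while the start anchor is 24.9 kb wide in the senescent set and 27.2 kb in the control set. The anchor at 76076226 to 76109274, at -333 kb, had 86.5, 78.0, 112 and 72.1 PPM with the start anchor in shMETTL3, shMETTL14, shcontrol and control, and shMETTL14 stood at 0.694 of shcontrol there (0.488 to 0.990). The contact with the anchor at 76205657 to 76222062, at -212 kb, had 89.8, 79.0, 92.4 and 89.1, and its shcontrol to control ratio of 1.04 had an interval from 0.720 to 1.48. The contact with 76171002 to 76188701, at -246 kb, was 59.3, 81.2 and 74.3 in shMETTL3, shMETTL14 and shcontrol against 26.0 in control, and its shcontrol to control ratio was 2.85 (1.70 to 4.86).

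The largest loops of the window did not involve the gene start. In shMETTL3 and shMETTL14 the largest joined 76047274 to 76062230 with 76076226 to 76109274, with 129 and 155 PETs, ranking 18 and 28 among all interactions of those libraries, and the same pair had 99 PETs in shcontrol. In shcontrol the largest joined 76076226 to 76109274 with its neighbour at 76114159 to 76122017, with 100 PETs, and the same 2 regions held the largest loop in control, with 123. These loops were listed after their values were seen. The distal end of the window, about 300 kb from PHLDA1, was therefore connected within itself as well as to the gene.

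Where both anchor sets draw an anchor with identical ends, its own covered length is equal in the comparison. The partners it joins are still drawn differently by the 2 sets, so the covered length can enter through them. The PHLDA1 window holds 3 such anchors. The anchor at 76047274 to 76062230 had 1040 PPM in shMETTL3, 907 in shMETTL14, 1058 in shcontrol and 443 in control, and shcontrol was 2.39-fold control (2.11 to 2.71). The anchor at 76362086 to 76381892 had 1006, 917, 1089 and 502 in the same libraries, a ratio of 2.17 (1.92 to 2.45). The small anchor at 76403036 to 76406913 had 159, 138, 125 and 64.1, a ratio of 1.95 (1.37 to 2.78). The 3 senescent libraries were above control at each of them, as at the whole window. No value for such anchors over the whole libraries was taken, and the whole-library ratio per covered kb of shcontrol to control lies above 1. Whether these ratios exceed those of other anchors with identical ends was not tested.

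To count every region once, overlapping anchors of both sets were merged, and a merged region was called where its PPM differed at least 2-fold, with an interval that leaves out 1 and at least 50 PETs over both libraries. Of 24 merged regions at PHLDA1 held by both sets, 11 were higher in shcontrol than in control and 0 lower; over all 15109 regions compared, 15.3% were higher and 15.4% lower. The rule that chose the locus used these same PETs, so nothing is read from the excess. Of the 11, 7 are covered more widely by the senescent set, 2 equally and 2 less. The highest ratio was at 76194087 to 76201279, with 151 PETs in shcontrol and 39 in control, 7.002-fold in PPM (4.90 to 10.2), where senescent anchors cover 5.47 kb and control anchors 3.40 kb. The region at 76158907 to 76162807 was 2.43-fold higher (1.82 to 3.27) although the senescent set covers 2.38 kb of it and the control set 3.90 kb. The median log2 ratio was 0.97 over the 24 regions and 0.00 over all regions.

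Against shcontrol few regions of the window passed that rule in the knockdowns. In shMETTL3 1 of 30 regions was higher and 0 lower, with 1.86% higher and 1.32% lower over all regions. The region was 76021909 to 76024876, the far end of the window, with 116 PETs in shMETTL3, 84 in shMETTL14 and 50 in shcontrol, a shMETTL3 to shcontrol ratio of 2.05 (1.46 to 2.92). Its neighbour at 76014580 to 76020821, chosen after its values were seen, had 247, 236 and 116 PETs in the same libraries and a ratio of 1.88 (1.51 to 2.37), under the rule. In shMETTL14 0 of 30 regions were called in either direction, with 2.79% higher and 1.37% lower over all regions. The median log2 ratio over the 30 regions was 0.12 for shMETTL3 and -0.12 for shMETTL14, against -0.01 and 0.01 over all regions.

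The anchor over the KLF6 start, at 3816237 to 3831933 and to 3833034 in control, also spans its gene. It had 24 partners in shMETTL3, 22 in shMETTL14, 23 in shcontrol and 23 in control at equal depth, with ranks 23, 29, 25 and 14. The mean over 20 other drawings was 22.4 in shMETTL3, 22.9 in shMETTL14 and 18.15 in control, and the 23 of the control library lay above its 20 other drawings, which ran from 14 to 22. Its level was 508 PPM in shMETTL3, 555 in shMETTL14, 531 in shcontrol and 462 in control. The shcontrol to control ratio was 1.15 (0.989 to 1.33), and the knockdowns stood at 0.957 (0.814 to 1.13) and 1.05 (0.905 to 1.21) of shcontrol for shMETTL3 and shMETTL14. None of these 3 intervals leaves out 1.

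KLF6 contacts run mostly upstream, toward AKR1E2, the next coding gene at higher positions in RefSeq order. Of the PETs at the start anchor 77.6% in shMETTL3, 74.4% in shMETTL14, 73.7% in shcontrol and 70.9% in control joined a partner at higher positions. Of the partners at equal depth, 16 of the 24 in shMETTL3 and 15 of the 22 in shMETTL14 were among the 23 in shcontrol, and 13 of those 23 (56.5%) met a partner in control, or 52.2% of the 23 there. Upstream, the strongest contacts lay within about 110 kb of the gene and at 875 to 982 kb, and the 20-kb bin at 460 kb held 12.8, 27.8, 23.5 and 23.04 PPM in shMETTL3, shMETTL14, shcontrol and control. Below the gene, outside the window, weaker contacts lay at -340 to -240 kb, where the bin at -320 kb held 4.81, 8.54, 14.5 and 20.03 PPM in the same libraries. The nearest strong partner, at 3842903 to 3857691, had 56.1 PPM in shMETTL3, 82.2 in shMETTL14, 63.4 in shcontrol and 56.1 in control. The merged region at 4687921 to 4736032, centred 884.5 kb away, had 43.3, 55.5 and 43.5 in shMETTL3, shMETTL14 and shcontrol and 50.1 in control. Its shcontrol to control ratio was 0.868 (0.510 to 1.44), and it moved to 0.579 when only the senescent anchor at 4700738 to 4736032 was counted against all overlapping control anchors and to 1.24 against the control anchor at 4687921 to 4716534. None of the ratios of these 2 contacts had an interval that leaves out 1. The contact with 3927121 to 3946069, 109 kb away, was 46.5, 29.9 and 56.2 in shMETTL3, shMETTL14 and shcontrol and 38.1 in control, and shMETTL14 stood at 0.532 of shcontrol (0.308 to 0.917).

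**Figure D3:**
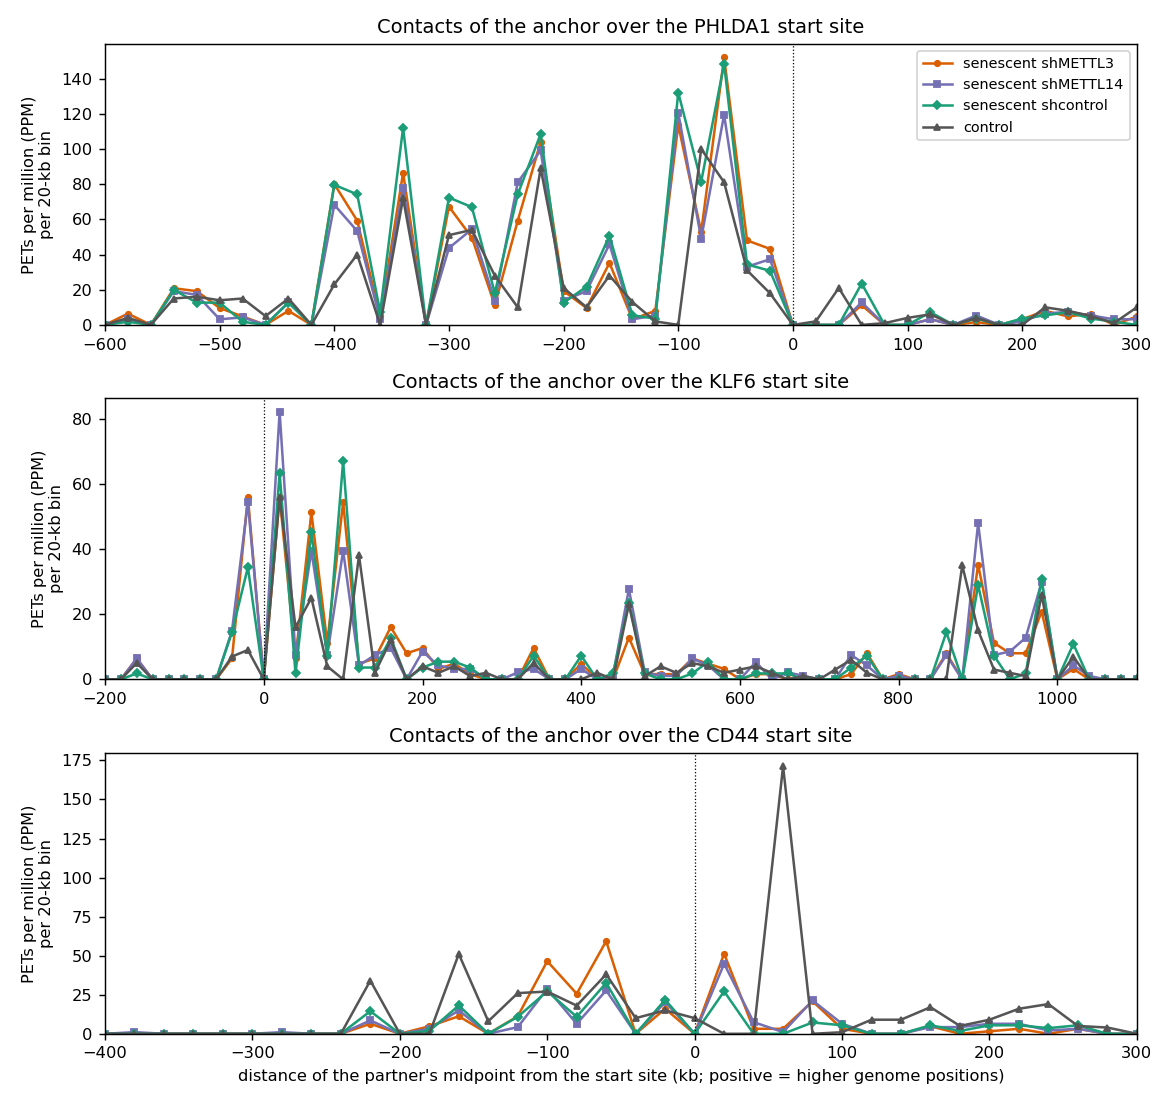
PPM at the anchor over each gene's start site, by 20-kb bin of the partner's distance from the start site in kb, 1 line per library. Most PHLDA1 contacts lie at lower positions out to 400 kb, with 15.02 to 20.8 PPM in the bin at -540 kb. The highest KLF6 points within the range drawn lie near the gene and at 460, 880, 900 and 980 kb. The point at 880 kb is the control library, with 35.1 PPM. The tallest CD44 point is the control library at 60 kb, with 171 PPM.

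Long contacts made up a larger share at KLF6, the longest of the 3 windows, than at the other loci. Of its PETs, 25.9% in shMETTL3, 31.3% in shMETTL14, 31.2% in shcontrol and 33.7% in control spanned at least 500 kb, against 12.6%, 15.3%, 14.7% and 13.5% over the whole libraries. At PHLDA1 the share was 5.16%, 6.48%, 6.60% and 7.34%, and at CD44 12.3%, 14.1%, 13.9% and 10.5%, in the same order. The best-connected anchor of the window in the senescent libraries was not that of the gene but the distal one at 4700738 to 4736032. It had 28 partners in shMETTL3, 33 in shMETTL14 and 30 in shcontrol at equal depth, and in shMETTL14 it ranked 1 among all anchors of the library. In control the anchors at 3923296 to 3955741, 112 kb from the start, and at 4687921 to 4716534 in the distal part had 26 and 25. Their order turned with the drawing: over 20 others the means were 21.55 and 27.65, and as deposited they had 33 and 38 partners.

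The window was split after its values were seen into a part at the gene, from -80 to 230 kb of the start site toward higher positions, and a distal part from 700 to 1100 kb. The senescent and control anchor sets cover different lengths of regions in both parts. The shcontrol to control ratios of the parts are not per covered kb, and whether they depend on covered length was not tested. Contacts within the distal part had 1313 PPM in shMETTL3, 938 in shMETTL14, 1161 in shcontrol and 700.1 in control. Shcontrol was 1.66-fold control (1.49 to 1.85), shMETTL3 was 1.13-fold shcontrol (1.02 to 1.26), and shMETTL14 stood at 0.807 of shcontrol (0.728 to 0.895). Within the part at the gene the levels were 1087, 1218, 1004 and 796 in shMETTL3, shMETTL14, shcontrol and control, with ratios of 1.08 (0.966 to 1.21) for shMETTL3 and 1.21 (1.10 to 1.35) for shMETTL14 over shcontrol and 1.26 (1.13 to 1.41) for shcontrol over control. The knockdown libraries thus lay in opposite order in the 2 parts, shMETTL3 above shMETTL14 in the distal part and below it at the gene. No whole-library value at matched spans was taken for contacts within a part. Over the whole libraries, PETs spanning under 50 kb were 42.8% in shMETTL3, 41.5% in shMETTL14 and 39.7% in shcontrol. Whether the ratios within the parts differ from those of the libraries was not tested.

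Contacts between the 2 parts had 508 PPM in shMETTL3, 696 in shMETTL14, 632 in shcontrol and 508 in control. The ratio was 0.804 for shMETTL3 over shcontrol (0.688 to 0.938), 1.10 for shMETTL14 over shcontrol (0.966 to 1.26) and 1.24 for shcontrol over control (1.08 to 1.43). Over the whole libraries, PETs that span 700 to 1100 kb gave 0.871 (0.857 to 0.886), 1.07 (1.05 to 1.08) and 1.09 (1.07 to 1.10) for the same comparisons. Each KLF6 ratio had the direction of its whole library, and each KLF6 interval includes the value of its whole library. The difference between a KLF6 ratio and that of its library was not tested.

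**Figure D4:**
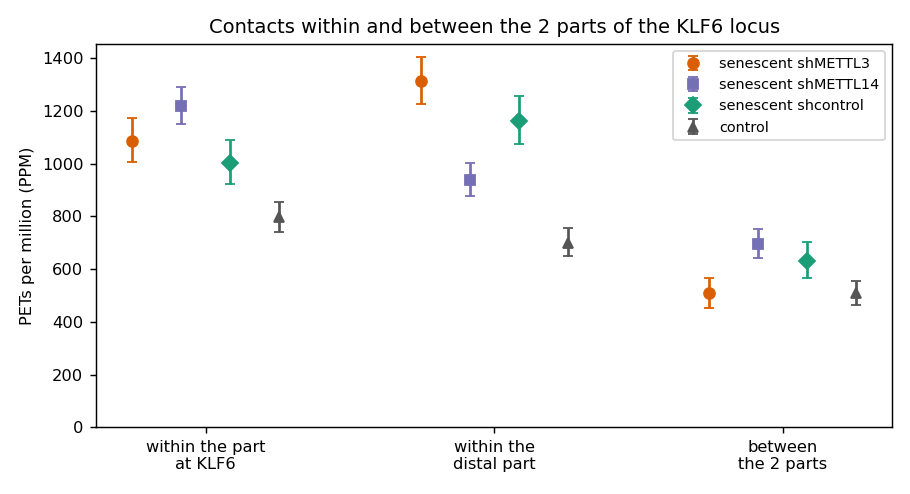
PPM within the part of the KLF6 window at the gene, within the distal part 700 to 1100 kb away, and between the 2 parts, 1 library per point with its 95% Poisson interval. Control is lowest within both parts, at 796 and 700.1, and shMETTL3 and control lie together at 508 between the parts, under shMETTL14 at 696.

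The largest loop of the KLF6 window in each senescent library joined 4700738 to 4736032 with 4800263 to 4818913 in the distal part, with 122 PETs in shMETTL3, 121 in shMETTL14 and 89 in shcontrol. In control the largest joined 4687921 to 4716534 with 4803555 to 4818913, with 82 PETs. Of 34 merged regions held by both sets and with enough PETs, 10 were higher in shcontrol than in control and 4 lower, out of 39 in the window, with a median log2 ratio of 0.29. Over all regions 15.3% were higher and 15.4% lower, and the share of lower regions at KLF6 is close to that. The 4 lower ones are each covered less by the senescent set, and of the 10 higher ones 7 are covered more, 2 equally and 1 less. Among the higher ones, 4741731 to 4749858 in the distal part had 254 PETs in shcontrol and 102 in control, 4.50-fold in PPM (3.57 to 5.72), where the senescent anchors cover 8.13 kb and the control anchors 2.73 kb. The region 3881180 to 3884383, 55.3 kb from the start and identical in both anchor sets, had 68 against 51 PETs, a ratio of 2.41 (1.65 to 3.54). Of 5 anchors with identical ends at KLF6, 2 had a shcontrol to control ratio whose interval leaves out 1, at 2.14 and 2.41, and the others, at 1.70, 1.02 and 0.923, had intervals that include 1. Such anchors were not counted over the whole libraries, where the ratio per covered kb lies above 1. Nothing is therefore read from this count.

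In the knockdowns, 0 of 32 KLF6 regions with enough PETs in shMETTL3 and 0 of 35 in shMETTL14, of 49 in the window, were called in either direction against shcontrol. The median log2 ratios were -0.02 and 0.10. Over all regions they were -0.01 and 0.01, with 1.86% called higher and 1.32% lower in shMETTL3 and 2.79% and 1.37% in shMETTL14.

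CD44 was the locus where the anchor sets differ most. In control, 1 anchor of 35.0 kb at 35158816 to 35193788 covers the start and another of 65.8 kb at 35194352 to 35260112 covers the rest of the gene, while the senescent set covers 23.8 and 31.8 kb of those regions in smaller anchors. The start anchor of the senescent set, 35158816 to 35170006, had 12 partners in shMETTL3, 7 in shMETTL14 and 9 in shcontrol at equal depth, and that of the control set had 19. The ranks were 368, 1214, 761 and 45. Its level was 340 PPM in shMETTL3, 280 in shMETTL14, 248 in shcontrol and 591 in control. The ratio was 0.420 for shcontrol over control (0.346 to 0.507), against 0.705 for the merged start region, and 1.37 for shMETTL3 (1.10 to 1.71) and 1.13 for shMETTL14 (0.913 to 1.396) over shcontrol. Means over 20 other drawings were 11.85, 9.8, 9.0 (not drawn down) and 20.1 in shMETTL3, shMETTL14, shcontrol and control. The order between shMETTL14 and shcontrol therefore turned with the drawing. The control anchor over the gene body had 29 partners and ranked 3 in its library. In the senescent set, the anchor at 35233490 to 35250210 had 10, 16 and 12 partners in shMETTL3, shMETTL14 and shcontrol. Its ranks were 600, 119 and 341. The anchor at 35093470 to 35106939 had 12, 12 and 13 partners, with ranks 368, 306 and 275.

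The strongest contact of the control library at CD44 joined the start region to the gene body. It had 37 PETs in shMETTL3, 91 in shMETTL14, 19 in shcontrol and 171 in control, or 59.3, 97.2, 34.4 and 171 PPM, counted between the merged regions. In control this loop ranked 22 among all interactions of the library. The shcontrol to control ratio was 0.201 (0.118 to 0.324), with the covered lengths just given. The shMETTL14 to shcontrol ratio was 2.82 (1.71 to 4.90) and that of shMETTL3 1.72 (0.966 to 3.17), on anchors drawn the same way in all senescent libraries. The pair was singled out after its values were seen, and it rests on 19 PETs in shcontrol.

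On the other side of the start lies the region at 35093470 to 35110949, at -58.2 kb, of which senescent anchors cover 16.1 kb and control anchors 16.6 kb. It had 81.7 PPM with the start region in shMETTL3, 42.7 in shMETTL14, 48.9 in shcontrol and 38.1 in control. The shMETTL3 to shcontrol ratio was 1.67 (1.03 to 2.77), and the shcontrol to control ratio 1.29 had an interval from 0.755 to 2.16. The share of start-anchor PETs that ran to higher positions, into and past the gene, was 34.9% in shMETTL3, 44.7% in shMETTL14, 32.1% in shcontrol and 52.2% in control. The control library, with its wider start anchor, had the largest share on the side of the gene body. Of the start-anchor partners at equal depth, 8 of the 12 in shMETTL3 and 6 of the 7 in shMETTL14 were among the 9 in shcontrol, and 8 of those 9 met a partner in control, or 42.1% of the 19 there.

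Of 5 merged CD44 regions held by both sets, 0 were higher in shcontrol than in control and 2 lower, with a median log2 ratio of -0.50; over all regions 15.3% were higher and 15.4% lower. The gene body region had 195 PETs in shcontrol and 782 in control, a ratio of 0.451 (0.384 to 0.528), and 35279076 to 35292492, past the gene on the side of SLC1A2, had 17 and 179, a ratio of 0.172 (0.0979 to 0.283), where senescent anchors cover 3.64 kb and control anchors 13.4 kb. The regions 35093470 to 35110949 and 35128593 to 35134702, before the gene on the side of PDHX, stood at 1.46 (1.22 to 1.75) and 1.75 (1.20 to 2.54), under the 2-fold rule. The region over the gene start stood at 0.705 (0.603 to 0.822), also under it. The knockdowns had 0 of 4 regions called in either direction, of 5 in the window, with median log2 ratios of 0.26 for shMETTL3 and 0.28 for shMETTL14. Over all regions the medians were -0.01 and 0.01. Calls over all regions were 1.86% higher and 1.32% lower in shMETTL3, and 2.79% and 1.37% in shMETTL14. All 4 regions were above shcontrol in shMETTL3 and 3 of 4 in shMETTL14. The share of all regions above shcontrol was not counted, and these regions share PETs with each other, so nothing is read from this count.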

How the data were processed

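H3K27ac HiChIP of IMR90 cells gave 1 interaction list per group. Per the submitters' processing notes, HiC-Pro 3.1.0 and hg19 were used; the interaction caller was not given in the sources used here. The deposited PET counts are raw, with no normalization. The last column was read as a q-value deposited by the authors for each interaction, a reading from its values because the files have no header, and served only as an alternative. Anchor positions are printed counted from 1. Totals were 623930 (shMETTL3), 936492 (shMETTL14), 552029 (shcontrol) and 998378 (control) PETs. PETs were drawn without replacement to 552029 (seed 1) with numpy 2.4.6, scaled to 1000000 PETs of the library, and anchors merged where they overlapped by at least 1 bp; log2 ratios used a pseudocount of 1 on that scale. Ratios have exact conditional binomial 95% intervals (scipy 1.17.1). The 2-fold rule for merged regions was tried on simulated Poisson counts, which does not test whether the intervals hold for these PETs. PETs are not known to be independent molecules.

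The members, lists and settings were chosen with earlier results of these data known. Anchors named by rule were that over each gene start and the 3 with the most partners per window and anchor set; contacts named by rule were the 5 strongest of the start anchor in senescent cells and the 3 strongest in control, of which the text gives those the comparisons turn on. No test across conditions was possible with 1 library per group. Gene names were not attached to other anchors, since the gene table used here is on GRCh38.p14 and positions were not converted; coding neighbours come from its gene order only. TMM factors of edgeR 4.0.16 (R 4.3.3), covered length, other spans, loop thresholds, drawings and a 20-kb grid were tried as alternatives.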

Additional observations from a re-analysis of the deposited data

How the results depend on the processing

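Of 45 alternative values for the share of PETs at a locus, 39 kept the direction and the side of 1 of their interval. Among the 39 are the knockdown ratios per covered kb. Those equal the main values by construction, because the senescent libraries share anchor positions, and so test nothing. Taking only contacts with both ends in the window gave shMETTL3 over shcontrol 1.05 at PHLDA1 (1.0004 to 1.09), a lower bound barely above 1. At KLF6 it gave 1.02 (0.961 to 1.08), reversed within counting error. This setting drops contacts longer than the window. Over the whole libraries, PETs spanning at least 500 kb were 12.6% in shMETTL3 and 14.7% in shcontrol. No whole-library value at matched spans was taken for this setting at any locus. CD44 in shcontrol over control was 1.24 per covered kb, by construction of the covered length, and shMETTL14 over shcontrol at CD44 passed 1 with both ends in regions of both anchor sets (1.11), with spans of at least 20 kb (1.12) and with both ends in the window (1.31). Of 54 ratios of loops, 47 counted as kept in direction and size, and a ratio of 1.00 counted as kept. On 20-kb bins CD44 had 48 loops in shMETTL3, shMETTL14 and shcontrol alike. Both knockdown ratios there were 1.00, so their direction was lost. As deposited, at unequal depth, shcontrol over control was 0.888 at PHLDA1 and 0.665 at KLF6, shMETTL14 over shcontrol was 1.35 at PHLDA1, 1.75 at KLF6 and 1.88 at CD44, and shMETTL3 over shcontrol was 1.08 at KLF6. With the authors' q-value at 0.01, shMETTL3 over shcontrol at CD44 was 0.909. Partners of the start anchors were least stable, with 37 of 54 ratios kept. The kept ones include CD44 ratios of 1.00, where the direction was lost. These were shMETTL3 over shcontrol with at least 3 PETs and on 20-kb bins, and shMETTL14 over shcontrol with at least 3 PETs. At KLF6 the main ratio of shcontrol over control was 1.00, with 23 partners in each, so no alternative could count as reversed. Its values counted as kept ran from 0.857 with the q-value to 1.27 over 20 other drawings. As deposited, shcontrol over control was 0.717 at PHLDA1, 0.657 at KLF6 and 0.281 at CD44, and shMETTL14 over shcontrol 1.27, 1.52 and 1.89 at the same genes. For shMETTL3 over shcontrol, PHLDA1 was 0.929 with at least 3 PETs, 0.885 with at least 6, 0.939 with the q-value and 0.968 on 20-kb bins, and KLF6 was 0.929, 0.800 and 0.875 with 3 PETs, 6 PETs and 20-kb bins and 0.974 over 20 other drawings. For shMETTL14 over shcontrol, KLF6 was 1.07 with at least 3 PETs and 1.06 with the q-value, and CD44 was 1.09 over 20 other drawings. Apart from depth and covered length, the cause was not tested. No paired analysis was possible because each group has 1 library. With this depth a contact of under 20 PETs has an interval of several fold, as between the CD44 start and gene body in shcontrol.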
